A study of Mus musculus with 6 samples.

Results

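The genes described here encode the constitutive proteasome, the protease that degrades ubiquitin-tagged proteins in every cell. They were taken from the full gene table by name, as every symbol that starts with Psma, Psmb, Psmc, Psmd, Psmf or Psmg and a digit, leaving out the immunoproteasome genes Psmb8, Psmb9 and Psmb10 and pseudogenes marked -ps. The rule found 42 of 26096 rows, used no measured value, and gave each symbol a single row. By textbook role 41 of them are subunits, assembly chaperones or regulators of the proteasome. The exception is Psmc3ip, a recombination factor that matches the rule by name and is not a proteasome subunit, and it is reported apart.

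The measurements are RNA sequencing profiles of wild-type mouse microglia, the macrophages of the brain. Microglia in 3 libraries had received medium conditioned by ferroptotic bone marrow-derived macrophages (ferroptosis is an iron-dependent cell death by lipid peroxidation), and in 3 libraries medium conditioned by normal ones, called ferroptotic and normal medium here. The sources used here do not say how ferroptosis was induced, how long the medium was applied or where the microglia came from. They also do not say that the 3 libraries of a group came from separate cultures, so the p-values reflect the spread among these libraries alone, and that spread may be technical.

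The proteasome has a barrel, the 20S core, made of stacked rings of alpha subunits, which form the gate, and beta subunits, of which Psmb5, Psmb6 and Psmb7 carry the active sites. A 19S cap sits on its ends: a base, with a ring of ATPases (Psmc genes) that unfold substrates and scaffolds that bind ubiquitin, and a lid, in which Psmd14 removes the ubiquitin chain. Dedicated chaperones assemble both parts and are not in the finished particle: Psmg1 to Psmg4 build the core, and Psmd5, Psmd9 and Psmd10 build the base. When proteasome capacity falls short, the transcription factor NRF1 (gene Nfe2l1) is processed and raises the subunit genes together, while interferons induce Psmb8, Psmb9 and Psmb10, which replace the constitutive active subunits and make the immunoproteasome of antigen presentation.

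With ferroptotic medium, 20 of 32 tested core and cap subunit genes rose and 0 fell, where 19.7% of all genes tested rose and 22.8% fell, although scaling by total reads in place of the deposited size factors called 2 of them, Psma4 and Psmb7, lower. Leaving out ferroptotic replicate 1, ferroptotic replicate 3 or normal replicate 2 likewise called 1 subunit lower each, Psmc3 (-0.14), Psma4 (-0.12) and Psmb7 (-0.13). In the authors' deposited values Psmb7 was lower too, at a false discovery rate of 0.0407. The changes were small, with a median log2 value of 0.18 in the cap and 0.15 in the core. Of the 4 chaperones of the core 3 were called lower, and the calls of all 3 were lost when the first or the third normal library was left out, at adjusted p-values of 0.0571 to 0.125 in limma. The base chaperone gene Psmd5 rose 2.00-fold, the largest rise among the members. Changes are log2 fold changes of ferroptotic over normal medium on the log2(normalized count + 1) scale, which understates the change of low genes, where a normalized count is a read count divided by the size factor of its library. A gene is called when its limma adjusted p (two-sided, Benjamini-Hochberg over all 15597 genes tested) is under 0.05, and a gene was tested when 3 or more libraries had 10 or more normalized counts.

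**Figure D1:**
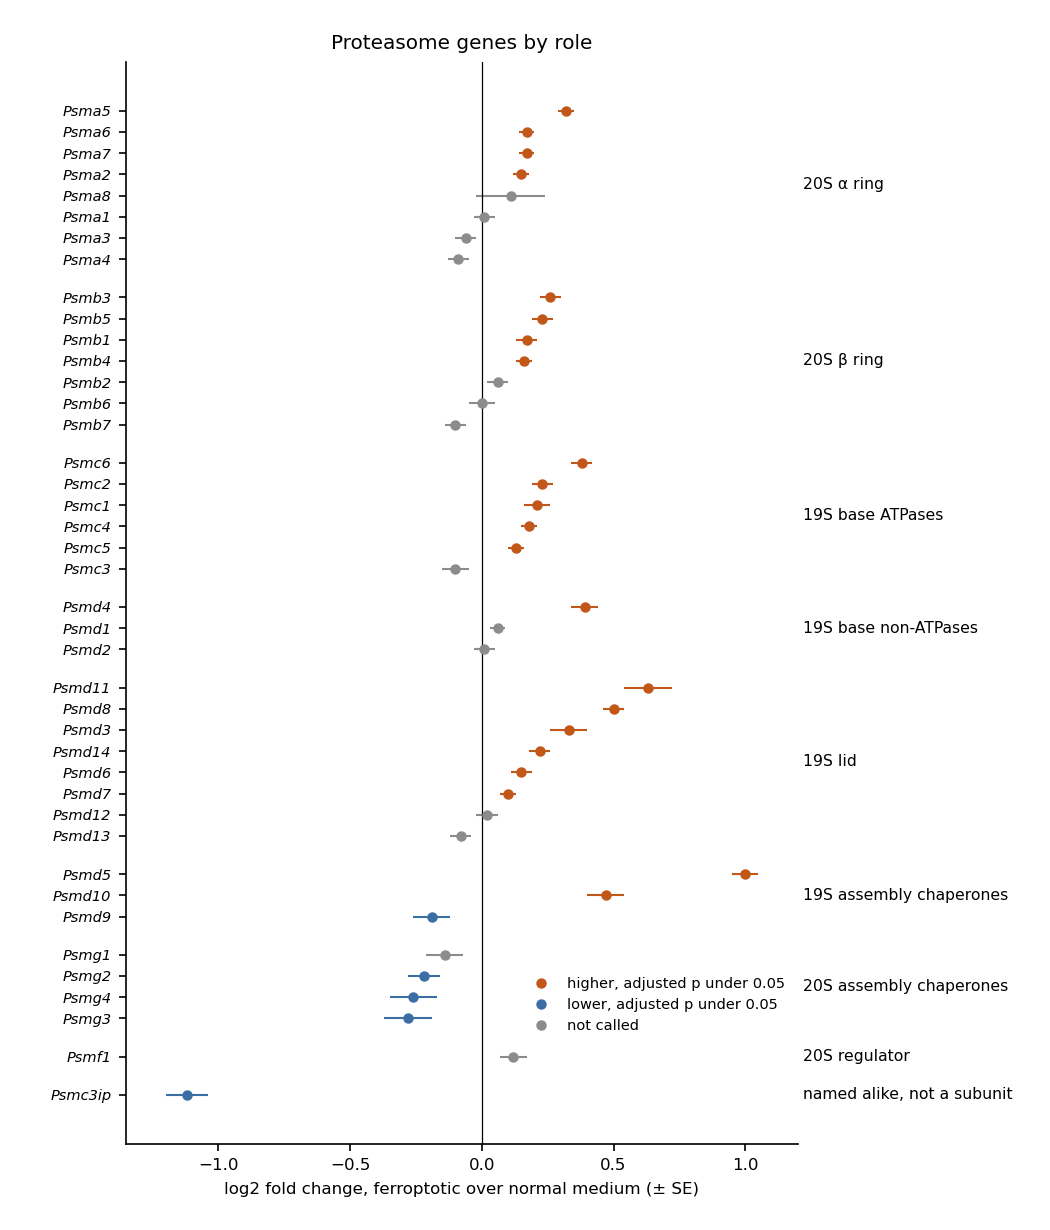
Log2 fold change (ferroptotic over normal medium, x axis) of the 41 tested genes, grouped by role. Points are limma estimates and bars are SE (3 libraries per group); orange genes were called higher, blue lower and grey not called. Orange points fill much of the 20S and 19S groups, and blue points lie among the chaperones, at Psmd9 and at Psmg2, Psmg3 and Psmg4, and at Psmc3ip.

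Of the 42 rows, 41 passed the filter on low values. Of those tested, 22 were called higher (53.7%) and 5 lower (12.2%), where over all genes 19.7% were called higher and 22.8% lower, 42.5% in all. The lower count rests on single libraries: without normal replicate 1, or without normal replicate 3, it was 1, Psmc3ip, and without ferroptotic replicate 3 it was 3. The median log2 fold change was 0.13 over the tested members and -0.01 over all genes tested. Abundant genes reach the threshold with smaller changes, so genes of like level are the closer background: among the 3062 genes averaging 3000 to 20000 normalized counts, 27.4% were called higher and 37.1% lower, with a median of -0.04. The 31 proteasome genes in that range, all core or cap subunits, had 20 called higher and 0 lower, with a median of 0.16. The range leaves out Psma8, the chaperones, Psmf1 and Psmc3ip, and with them all 5 members called lower. It is thus a background for the subunits only. By values alone, 24 of the 41 genes were higher in every ferroptotic library than in any normal one and 8 were lower in every one, and over all genes 25.6% and 28.2% were separated in these directions. The changes were small: 3 called members of the 41 tested moved more than 1.5-fold, Psmd5, Psmd11 and Psmc3ip. Over all 15597 genes tested, 2646 were called and moved that far. The members' median size of change, 0.17, was below the 0.29 of all genes tested. In bulk samples, fewer cells of a type and less RNA per cell cannot be told apart.

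**Figure D2:**
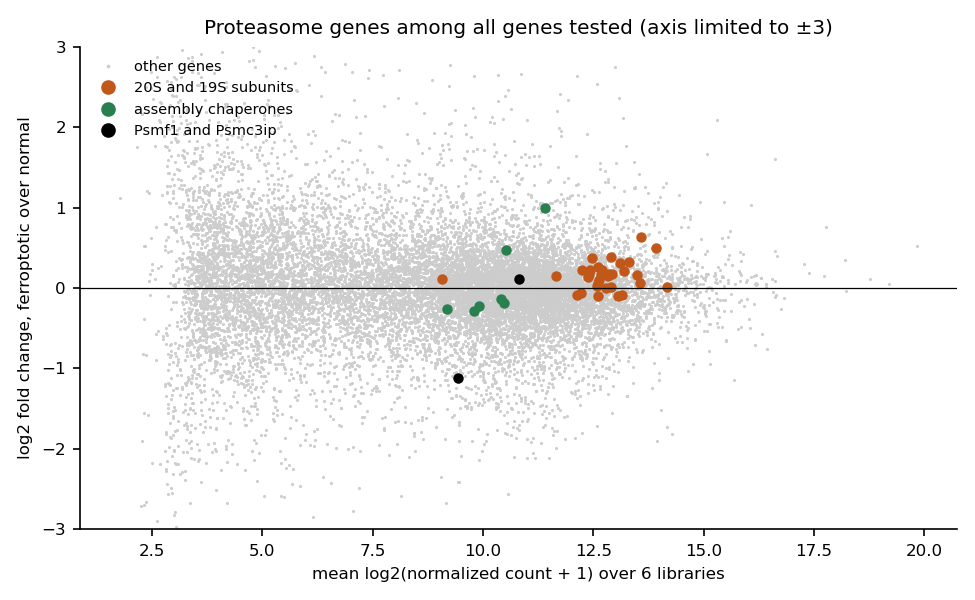
Log2 fold change (ferroptotic over normal medium, y axis, limited to ±3, which leaves out 86 genes) against mean log2(normalized count + 1) over the 6 libraries for all genes tested. Grey points are other genes, orange points 20S and 19S subunits, green points assembly chaperones and black points Psmf1 and Psmc3ip. The subunits form a tight, abundant group lying mostly just above zero.

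Because 20 of the 32 tested subunit genes were called higher, the members' promoters were read for the antioxidant response element, which NRF1 and its relative NRF2 bind: the core letters TGACNNNGC were searched on both strands of the RefSeq promoter windows of GRCm38.p6, which run from 250 bases before to 50 bases after a gene start. Windows of 34 members were used. The core was in 5 of them: Psmb5 and Psmc6, which rose, Psmb6 and Psmd12, which were not called, and the chaperone Psmd9, which was called lower. That is 2 of 19 members called higher and 3 of 15 others. It was in 15.4% of the 26 subunit genes, against 14% of all 27025 genes with a window, so the share is near the background. A CCAAT box (CCAAT, both strands), common in such promoters, was in 42.3% of the subunit genes and 41.1% of all genes. A match is a description of the letters and no sign of binding, and sites outside these windows were not searched.

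The 250 bases before the start are shown, 5′ to 3′ on the gene's strand, for the pair of active site genes that hold the core, of which Psmb5 was called higher and Psmb6 was not called, Psmb5 at chr14:54617996-54618245 (minus strand) and Psmb6 at chr11:70525107-70525356 (plus strand), and for the members with the largest rises, Psmd5 at chr2:34870963-34871212 (minus strand) and Psmd11 at chr11:80428365-80428614 (plus strand), whose windows hold none. Capitals mark the TGACNNNGC core.
Psmb5: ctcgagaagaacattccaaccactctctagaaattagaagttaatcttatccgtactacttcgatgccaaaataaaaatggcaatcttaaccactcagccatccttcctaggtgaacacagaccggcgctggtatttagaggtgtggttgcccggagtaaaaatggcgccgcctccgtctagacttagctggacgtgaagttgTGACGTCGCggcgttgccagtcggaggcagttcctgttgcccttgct
Psmb6: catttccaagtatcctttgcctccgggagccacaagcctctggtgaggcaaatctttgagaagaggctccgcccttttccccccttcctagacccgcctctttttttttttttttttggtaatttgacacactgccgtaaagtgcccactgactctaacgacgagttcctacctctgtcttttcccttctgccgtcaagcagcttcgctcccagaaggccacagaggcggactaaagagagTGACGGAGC
Psmd5: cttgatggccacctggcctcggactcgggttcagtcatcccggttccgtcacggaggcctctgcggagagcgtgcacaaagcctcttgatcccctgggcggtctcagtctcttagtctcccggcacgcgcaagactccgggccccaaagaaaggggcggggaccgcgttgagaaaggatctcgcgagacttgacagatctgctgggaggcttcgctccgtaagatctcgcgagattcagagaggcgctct
Psmd11: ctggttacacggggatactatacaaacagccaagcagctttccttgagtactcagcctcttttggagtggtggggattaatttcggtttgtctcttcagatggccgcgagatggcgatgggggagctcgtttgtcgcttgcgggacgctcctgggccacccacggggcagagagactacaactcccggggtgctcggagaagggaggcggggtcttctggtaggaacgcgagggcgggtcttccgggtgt

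The regulatory cap held the largest subunit changes. Of its 17 base and lid genes, 12 were called higher and 0 lower; the median was 0.18 and the highest value 0.63 on the log2 scale. In the lid, 6 of 8 genes rose. Psmd11, a scaffold subunit of the lid known to raise assembly of the capped particle in human stem cells, had 14439, 16150 and 15344 normalized counts with ferroptotic medium, against 10842, 8734 and 10168 with normal medium. Its groups did not overlap, although the normal libraries spread over a wide range, and the difference was 0.63 (SE 0.09; limma adjusted p = 0.00139). Psmd8, another lid scaffold, had 19003, 17742 and 18966 normalized counts with ferroptotic medium and 13463, 13227 and 12694 with normal medium. Every ferroptotic library was above every normal one by a wide margin, and the log2 difference was 0.50 (SE 0.04; limma adjusted p = 1.17e-05). Psmd3, also a lid scaffold, had 10629, 11523 and 11802 normalized counts with ferroptotic medium, against 8146, 9653 and 9302 with normal medium (0.33, SE 0.07; limma adjusted p = 0.00736). Here too the groups were separated.

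Psmd14, the deubiquitinase of the lid, had 5816, 5965 and 6079 normalized counts with ferroptotic medium, against 5350, 4938 and 5067 with normal medium, and rose without overlap (0.22, SE 0.04; limma adjusted p = 0.00279). Psmd6 (0.15) and Psmd7 (0.10) rose less, and Psmd7, the partner of Psmd14 in the lid, lost its call under 10 of 14 alternative settings. The lid genes not called were Psmd12, with a 95% interval for its log2 fold change of -0.07 to 0.11, and Psmd13, with an interval of -0.18 to 0.01.

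In the base, 5 of the 6 ATPase genes rose. The largest change was in Psmc6, with 6179, 6537 and 6675 normalized counts with ferroptotic medium, against 5059, 4776 and 5078 with normal medium (0.38, SE 0.04; limma adjusted p = 0.000155). All of the ferroptotic values were higher, and the spread inside each group was small beside the gap. Psmc2 (0.23), Psmc1 (0.21), Psmc4 (0.18) and Psmc5 (0.13) rose with separated groups, with limma adjusted p-values between 0.00117 and 0.0113. Psmc3 was not called: it averaged 6066 ± 360 normalized counts with ferroptotic medium and 6477 ± 308 with normal medium (SD, n = 3 each), with an interval of -0.22 to 0.03 for its log2 fold change. Among the base subunits that are not ATPases, the ubiquitin receptor Psmd4 rose, with 9269, 8494 and 8696 normalized counts with ferroptotic medium, against 6971, 6354 and 6872 with normal medium (0.39, SE 0.05; limma adjusted p = 0.000241). The large scaffolds Psmd1 and Psmd2 were not called. Psmd2 averaged 18433 ± 535 with ferroptotic medium and 18339 ± 890 with normal medium, and its interval was -0.09 to 0.10.

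In the 20S core, 8 of 15 tested genes were called higher and 0 lower, around a median log2 value of 0.15; Psma4 and Psmb7 were the pair called lower with scaling by total reads. In the alpha ring, Psma5 led, with 9750, 10038 and 9905 normalized counts with ferroptotic medium, against 7838, 7872 and 8113 with normal medium. The log2 difference was 0.32 (SE 0.03; limma adjusted p = 6.09e-05), with tight groups far apart. Psma6 (0.17), Psma7 (0.17) and Psma2 (0.15) also rose. Psma1 was level between the media, with an interval of -0.07 to 0.09, and Psma3 was not called either. Psma4, at 8409, 8834 and 9085 normalized counts with ferroptotic medium and 9404, 9296 and 9345 with normal medium, was lower in every ferroptotic library without reaching the threshold (-0.09; limma adjusted p = 0.074). Psma8, which in mouse takes the place of Psma7 in testis proteasomes, was measured at 607, 469 and 617 normalized counts with ferroptotic medium, against 480, 489 and 593 with normal medium. Its groups overlapped (0.11, SE 0.13; limma adjusted p = 0.549).

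The beta ring carries the proteolytic sites, and of these 1 was called higher and the other two were not called. Psmb5, the chymotrypsin-like site and the main target of proteasome inhibitor drugs, had 5360, 5196 and 5121 normalized counts with ferroptotic medium, against 4338, 4432 and 4609 with normal medium (0.23, SE 0.04; limma adjusted p = 0.00167). Its groups were fully separated. Psmb6, the caspase-like site, had 7540, 7001 and 6776 normalized counts with ferroptotic medium and 7229, 6948 and 7139 with normal medium. The values overlapped throughout, and the interval of the log2 fold change was -0.10 to 0.10. Psmb7, the trypsin-like site, had 7957, 8197 and 8442 normalized counts with ferroptotic medium, and 9051, 8461 and 8918 with normal medium. All ferroptotic values were below all normal ones, but the difference of -0.10 (SE 0.04) was not called (limma adjusted p = 0.0629), while the authors' deposited table gives it a false discovery rate of 0.0407.

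Setting the sites against each other inside each library, the ratio of Psmb5 to Psmb7 per kilobase of exon was 2.56, 2.41 and 2.31 with ferroptotic medium and 1.82, 1.99 and 1.97 with normal medium. The ratio of Psmb5 to Psmb6 was 1.48, 1.55 and 1.57 with ferroptotic medium and 1.25, 1.33 and 1.34 with normal medium. Neither pair of groups overlapped, and each exact two-sided permutation test gave p = 0.1, the smallest that 3 against 3 libraries allow (0.12 adjusted over 6 ratios). Of the structural beta subunits, Psmb3 (0.26), Psmb1 (0.17) and Psmb4 (0.16) rose and Psmb2 was not called (interval -0.02 to 0.15). Psmb11, the beta subunit of thymus cortex, was near the limit of detection, at 0, 5.12 and 5.54 normalized counts with ferroptotic medium and 0, 5.89 and 0 with normal medium, 17 reads in all. It was below the filter and was not tested.

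**Figure D3:**
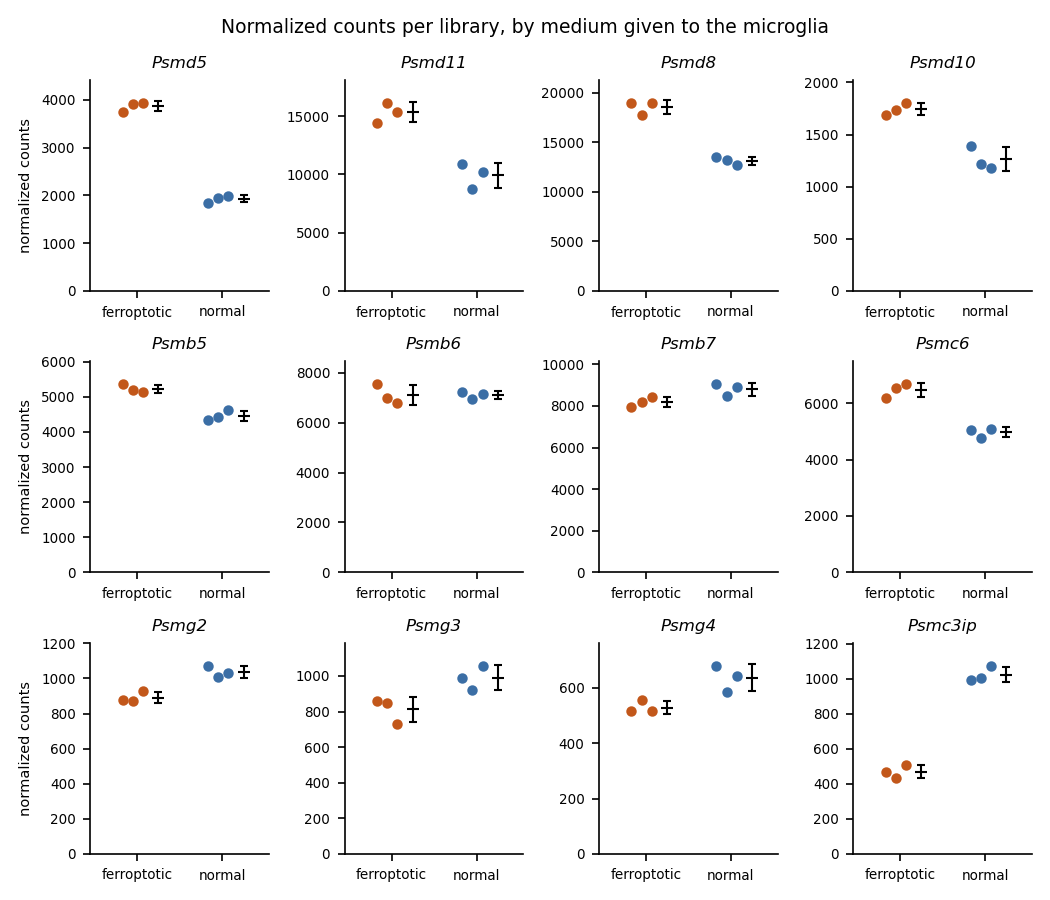
Normalized counts (y axis, from 0) in each library for 12 genes, ferroptotic medium in orange on the left and normal medium in blue on the right of each panel. Each point is a library and the black mark is the mean ± SD of 3. Psmd5, Psmd11, Psmd8, Psmd10, Psmb5 and Psmc6 are separated upwards with ferroptotic medium, Psmb6 overlaps, and Psmb7, Psmg2, Psmg3, Psmg4 and Psmc3ip are separated downwards.

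Summed over its 17 genes, the cap took 0.355%, 0.352% and 0.35% of all normalized counts with ferroptotic medium, against 0.308%, 0.303% and 0.306% with normal medium. The 15 tested core genes took 0.253%, 0.251% and 0.248% with ferroptotic medium, against 0.239%, 0.234% and 0.236% with normal medium. Averaged over genes on the log2 scale, the cap was 0.20 higher and the core 0.10 higher with ferroptotic medium, and in each group of libraries the SD of these averages was at most 0.02. No test was made of these averages.

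The chaperones moved both ways. Psmd5, which binds the ATPase Psmc2 while the base is built, had 3748, 3914 and 3943 normalized counts with ferroptotic medium, against 1849, 1955 and 1988 with normal medium. The groups lie far apart, a log2 difference of 1.00 (SE 0.05; limma adjusted p = 6.81e-07). In the authors' own FPKM, which are scaled by gene length, Psmd5 averaged 11 ± 0.26 with ferroptotic medium and 5.55 ± 0.19 with normal medium (SD, n = 3 each). Psmd10, known as gankyrin, which binds the ATPase Psmc4 during assembly, had 1688, 1738 and 1806 normalized counts with ferroptotic medium, against 1391, 1218 and 1177 with normal medium (0.47, SE 0.07; limma adjusted p = 0.000907). Its highest normal library stayed below its lowest ferroptotic one. Psmd9, the remaining base chaperone, had 1395, 1328 and 1280 normalized counts with ferroptotic medium and 1575, 1422 and 1568 with normal medium. It was called lower by a narrow margin (-0.19, SE 0.07; limma adjusted p = 0.0453), and 10 of 14 alternatives took the call away.

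The core chaperones had lower means with ferroptotic medium. Psmg3 had 859, 848 and 732 normalized counts with ferroptotic medium, against 991, 919 and 1058 with normal medium (-0.28, SE 0.09; limma adjusted p = 0.0302). Psmg4, its partner in the chaperone dimer, had 516, 555 and 516 normalized counts with ferroptotic medium, against 681, 584 and 644 with normal medium (-0.26, SE 0.09; limma adjusted p = 0.0372). Psmg2 had 875, 871 and 927 normalized counts with ferroptotic medium, against 1073, 1010 and 1028 with normal medium (-0.22, SE 0.06; limma adjusted p = 0.0235). In these 3 genes the groups were separated, but the calls were lost in 5 or 6 of 14 alternatives each. Psmg1, the dimer partner of Psmg2, was not called (-0.14, interval -0.30 to 0.02). The 20S-binding regulator Psmf1, known as PI31, was not called either, with 1868, 1813 and 1949 normalized counts with ferroptotic medium, against 1745, 1749 and 1701 with normal medium, although its groups did not overlap (0.12, SE 0.05; limma adjusted p = 0.105).

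Psmc3ip, which matches by name and is no subunit, fell the most of all rows taken by the rule. The protein acts in homologous recombination. It had 469, 435 and 505 normalized counts with ferroptotic medium, against 993, 1001 and 1074 with normal medium (-1.12, SE 0.08; limma adjusted p = 9.34e-06). In the authors' FPKM it averaged 5.29 ± 0.35 with ferroptotic medium and 11.7 ± 0.46 with normal medium. Its exons overlap those of Mlx, a transcription factor gene on the opposite strand, over 385 of 1818 bases in GENCODE M21, and Mlx rose by 0.46 (SE 0.06; limma adjusted p = 0.000251). Of the 50-base words of Psmc3ip, 17.6% are also in another gene, mainly Mlx. With the row of Mlx, the more abundant of the pair in counts, added to that of Psmc3ip, the log2 difference of the sum was 0.10. Mlx averaged 2847 normalized counts with ferroptotic medium and 2078 with normal medium, so the sum mostly reflects Mlx. It cannot show whether shared reads bear on the fall of Psmc3ip. Without Psmc3ip, the members number 40 tested, with 22 higher, 4 lower and a median of 0.14. Those 4 lower calls were 0 without normal replicate 1 or normal replicate 3.

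Levels of the genes were compared per kilobase of exon, with lengths from GENCODE M21. The highest member was Psma5, at 7492 normalized counts per kilobase with ferroptotic medium and 6011 with normal medium, followed with ferroptotic medium by Psma6 at 6427, Psmb4 at 6286 and Psmd8 at 6075. Psma5 and Psmb5 share 50% and 54.1% of their words with other genes, mainly pseudogenes. This order may therefore depend on how shared reads were assigned. Among tested members the lowest were the chaperone Psmd9, at 184 with ferroptotic medium and 210 with normal medium, and Psma8, at 226 with ferroptotic medium and 209 with normal medium. The core chaperones lay between 281 (Psmg3) and 971 (Psmg1) with ferroptotic medium and between 342 (Psmg3) and 1146 (Psmg4) with normal medium, below every tested subunit except Psma8 and, in the normal libraries for Psmg4, Psmd6 at 1088.

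Reads of some members can be shared with other gene models, which bears on the single values above. Of the 42 genes, 17 have no 50-base word in common with another gene's transcripts in GENCODE M21, among them Psmd8, Psmd10, Psmd4 and Psmg2. In 9 of them 10% or more of the words are shared. Psmb5 shares 54.1% of its words, mainly with the processed pseudogene Gm3375, whose row holds 2491, 2325 and 2267 normalized counts with ferroptotic medium and 2057, 2039 and 2073 with normal medium. With that row added, the log2 difference of Psmb5 was 0.22. Psma5 shares 50% of its words, mainly with the pseudogene Gm8394, and its difference with that row added was 0.32. Psmd5 shares 0.385% of its words, mainly with Znrf3, a gene whose own row fell by 0.63 (SE 0.19), and the summed difference was 0.75. That sum carries the fall of Znrf3 itself and cannot show whether shared reads bear on the rise of Psmd5. Psmd11 shares 9.43%, mainly with the transcript A730017L22Rik, which rose by 0.71 (SE 0.08); with that row added the log2 difference of Psmd11 was 0.63. The sources used here do not say whether counting used strand, and 9 members overlap a gene on the other strand, Psmb7 (with Nek6 over 405 bases, and a difference of -0.14 with that row added) and Psmd9 (with Gm26745 over 1849 bases) among them, so reads of such pairs cannot be told apart. The sum for Psmb7 likewise carries the change of Nek6, whose own row fell by 0.32 (SE 0.09).

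The genes around the constitutive particle were taken from lists of related roles. Over all genes tested 22.8% were called lower. All 3 immunoproteasome subunits fell: Psmb10 had 1264, 1087 and 1046 normalized counts with ferroptotic medium, against 2701, 2601 and 2647 with normal medium (-1.23, SE 0.07; limma adjusted p = 2.99e-06), and Psmb8 and Psmb9 fell by 0.59 and 0.79 on the log2 scale. On the opposite strand, Psmb8 overlaps Gm20496 over 498 bases, with 11.9% of its words shared, and Psmb9 overlaps Tap1 over 212 bases. Set against the constitutive subunit that each replaces, per kilobase of exon, Psmb10 over Psmb7 was 0.319, 0.266 and 0.249 with ferroptotic medium and 0.599, 0.617 and 0.596 with normal medium. Psmb8 over Psmb5 was 0.189, 0.195 and 0.197 with ferroptotic medium and 0.376, 0.31 and 0.345 with normal medium, and its size may depend on reads that Psmb5 shares with Gm3375. Psmb9 over Psmb6 was 0.0873, 0.0915 and 0.078 with ferroptotic medium and 0.142, 0.147 and 0.153 with normal medium. All 3 ratios were lower in every ferroptotic library, by 0.79 to 1.13 log2 units as group means, each with an exact two-sided permutation p = 0.1, the smallest possible here, and 0.12 adjusted over the 6 ratios.

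**Figure D4:**
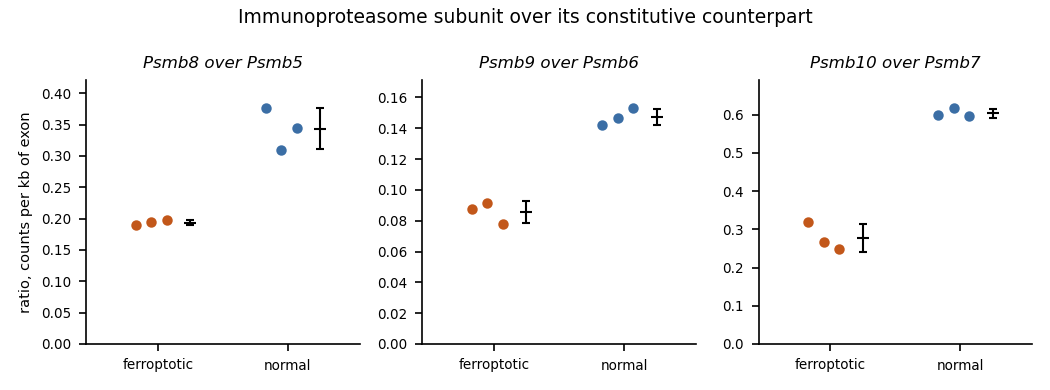
Ratio of each immunoproteasome subunit to the constitutive subunit it replaces, in normalized counts per kilobase of exon (y axis, from 0), per library, with ferroptotic medium on the left and normal medium on the right. Points are libraries and black marks are mean ± SD of 3. In each of the 3 panels all ferroptotic libraries lie below all normal ones.

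Of the 4 proteasome activator genes, Psme1 (-0.38, SE 0.05), part of the interferon-inducible activator, and Psme3 (-0.25, SE 0.04), the nuclear activator, fell, and Psme2 and Psme4 were not called. Of the other subunit and assembly genes, the ubiquitin receptor Adrm1 rose, with 3993, 3771 and 4065 normalized counts with ferroptotic medium, against 3083, 3108 and 3121 with normal medium (0.34, SE 0.04; limma adjusted p = 0.000243). The small lid subunit Sem1 rose too (0.21, SE 0.04), while the core maturation factor Pomp (0.09; limma adjusted p = 0.172) and Akirin2 (-0.01; 0.863), which brings proteasomes into the nucleus, were not called. Among 7 enzymes and factors bound to the particle, 2 rose, Txnl1 (0.25) and AI314180 (0.22), the gene of the Ecm29 adaptor, and 4 fell, the deubiquitinases Uchl5 (-0.34) and Usp14 (-0.18) and the ligases Ube3c (-0.40) and Huwe1 (-0.15). Among 11 genes of substrate delivery, 4 rose and 1, Ubqln4 (-0.45), fell. Those that rose were the proteasome-binding Zfand5 (0.84, SE 0.12), the segregase Vcp (0.14) with its cofactor Nsfl1c (0.34), and the shuttle Ubqln1 (0.18), whose groups overlapped. Among ubiquitin and ubiquitin-activating genes, Ubb (0.27), Uba6 (0.13) and Rps27a (0.11) rose, and Uba1 (-0.01) was not called. Beside these counts, 19.7% of all genes tested were called higher and 22.8% lower. Among genes averaging 3000 to 20000 normalized counts the shares were 27.4% and 37.1%. With so few genes per list, the counts of these lists are given as descriptions.

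Of 7 genes listed for the NRF1 axis, which controls proteasome genes, 6 were tested and 6 were called higher. Over all genes tested 19.7% were called higher, and 27.4% of those averaging 3000 to 20000 normalized counts. Nfe2l3, with 6 reads, was below the filter. Nfe2l1 itself had 6338, 6933 and 5499 normalized counts with ferroptotic medium, against 3430, 3822 and 3344 with normal medium (0.82, SE 0.09; limma adjusted p = 0.000368). Ngly1, the glycanase that edits NRF1 after its release from the endoplasmic reticulum, had 952, 983 and 1005 normalized counts with ferroptotic medium, against 589, 548 and 586 with normal medium (0.77, SE 0.07; limma adjusted p = 3.4e-05). Both genes were separated by a wide gap. Ddi2, the protease that cleaves NRF1, rose by 0.17 (SE 0.04), and Sel1l (0.43) and Syvn1 (0.19), parts of the ligase that turns NRF1 over, rose as well. The related factor gene Nfe2l2, which encodes NRF2, rose by 0.16 (SE 0.04; limma adjusted p = 0.0136). The part of these genes in the rise of the subunits was not tested.

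**Figure D5:**
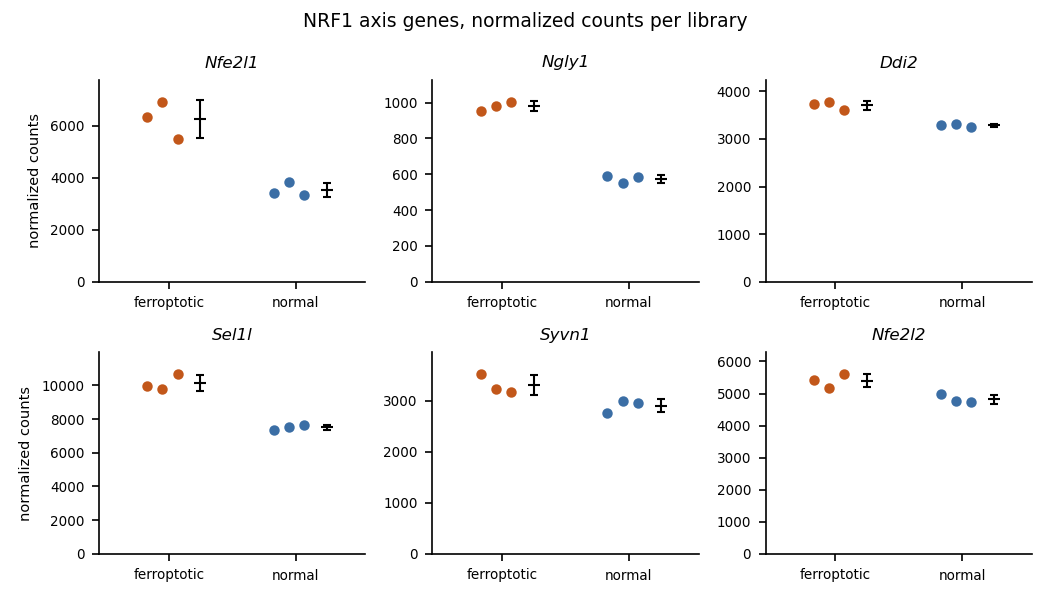
Normalized counts (y axis, from 0) per library of 6 genes of the NRF1 axis, ferroptotic medium in orange on the left and normal medium in blue on the right. Points are libraries and black marks are mean ± SD of 3. Every ferroptotic library lies above every normal library in each panel.

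Values that belong to the whole series bear on these results as follows. Reads assigned to genes numbered 40328420, 41953603 and 39624311 with ferroptotic medium and 43419446, 50557794 and 43829217 with normal medium. Levels of macrophage markers ranged widely, with Csf1r at 57734 to 59250 normalized counts with ferroptotic medium and 74146 to 77618 with normal medium. Adgre1 was at 3016 to 3325 with ferroptotic medium and 1810 to 1969 with normal medium, and Aif1 at 144 to 173 with ferroptotic medium and 194 to 211 with normal medium. The markers that set resident microglia apart were near 0, with P2ry12 at no more than 3.19 and Tmem119 at no more than 12.2 in a library. Of 13 tested microglia and macrophage markers, 3 were called higher and 5 lower, with summed levels of 203629 to 211799 with ferroptotic medium and 225004 to 232551 with normal medium. For this and the other marker lists, the share over all genes tested was 19.7% higher and 22.8% lower. Among genes averaging 3000 to 20000 normalized counts it was 27.4% and 37.1%. Among markers of other cells, 1 of 2 tested neuron genes, Tubb3, was higher, and the summed list was at 104 to 114 with ferroptotic medium and 15.7 to 42.1 with normal medium. Of 4 tested astrocyte genes 2 were higher and 1 lower, with sums of 4182 to 4367 with ferroptotic medium and 3362 to 3652 with normal medium, and Slc1a2 and Slc1a3 at no more than 5.12 in a library. Of 5 oligodendrocyte genes 1 was higher and 3 lower, with sums of 6139 to 6351 with ferroptotic medium and 8821 to 9383 with normal medium. Of 4 tested endothelial and fibroblast genes 2 were higher, with sums of 418 to 468 with ferroptotic medium and 321 to 346 with normal medium, and Col1a2 at no more than 0.979. Their part in the proteasome changes was not tested.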

How the data were processed

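RNA from 3 microglia libraries per medium was sequenced. Per the submitters' processing notes, the tools named, with no role or order, are R 3.4.3, DESeq2 1.18.1, HISAT2 2.1.0 and fastp 0.17.1. The sources used here do not give the genome build, annotation, counting tool or strand setting. The authors deposited log2 values per gene and library, group means, a log2 fold change, and p-values with false discovery rates, and FPKM for a shorter table of changed genes. After undoing the log, 100% of the deposited values were whole multiples, within 0.01, of a step per library, so they are read as log2(count divided by a size factor, plus 1). These whole reads, between 39624311 and 50557794 per library, may be rounded estimates, and a count model was run on them only as limma-voom.

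Here limma 3.58.1 (trend and robust) in R 4.3.3 was fitted to all 15597 genes passing the filter, with medium as the one term, and checked on simulated data. The plan assumed this unit. Changes placed in the simulated data were 1.5-fold or larger, with the same spread beyond sampling noise for all genes. That check thus does not cover the smaller changes called here. The members and lists were chosen with earlier results of these data known. Values in every library were planned for up to 8 called genes each way, the active sites and the extremes of level; Psmd14, Psma4, Psma8 and Psmf1 were added after their values were seen. The alternatives changed normalization, filter, pseudocount, test, replicate block and libraries left out. Replicates of a group differed beyond sampling noise (chi-square per degree of freedom 16.3 to 22.9). The depth allows small changes in abundant genes to be called. The ratios of Psmb5 to Psmb6 and Psmb7 were chosen after the values were seen. GENCODE M21 gave exon lengths, overlaps and shared words, and all 42 IDs matched. Some items of the ubiquitin list are not reported here.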

Additional observations from a re-analysis of the deposited data

How the results depend on the processing

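Over the 14 alternatives, 19 of the 27 called members kept their call in each, and no member's call changed sign. The number called higher stayed between 19 and 23 (22 as reported). The number called lower, 5 as reported, was 3 without a filter beyond a value above 0, 3 without trend and robust, 1 with the replicate block, 7 with scaling by total reads, and 1 to 6 when leaving out each library, with the lowest value without normal replicate 1 or 3 and 3 without ferroptotic replicate 3. Psmg2, Psmg3, Psmg4 and Psmd9 lost calls most often among those that fell, Psmd7 among those that rose, and Psmd6, Psmb1 and Psmc1 lost theirs in 1 or 2. The statement that 0 subunits fell did not hold with scaling by total reads (added after seeing the data), where Psma4 (-0.11) and Psmb7 (-0.12) were called lower, or without ferroptotic replicate 1 (Psmc3, -0.14), ferroptotic replicate 3 (Psma4, -0.12) or normal replicate 2 (Psmb7, -0.13). Nor did it hold in the authors' deposited values, where Psmb7 was lower at a false discovery rate of 0.0407. The median log2 fold change of the members, 0.13, was 0.16 with quantile normalization, 0.11 with scaling by total reads, and 0.13 to 0.15 leaving out each library. Same-numbered libraries did not deviate together (correlations 0.009, -0.020 and -0.039), so the replicate block is no paired design. Over all genes, 5798 to 6732 were called (6671 by limma-voom on whole reads). The cause of these changes was not tested. At this depth Psmb11 could not be tested in the fit reported.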

Other observations

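Libraries of a group stood apart at 2 genes of the pathway lists. Zfand2a, an arsenite-inducible partner of the proteasome, had 3217, 953 and 2780 normalized counts with ferroptotic medium and 637, 709 and 2338 with normal medium (1.00, SE 0.79; limma adjusted p = 0.382). The ligase gene Ube3a had 2851, 6120 and 6487 normalized counts with ferroptotic medium and 3250, 3286 and 3295 with normal medium (0.56, SE 0.36; limma adjusted p = 0.297), so replicate 1 of the ferroptotic group lay with the normal libraries. Both were picked for mention after their values were seen. Of the pseudogene rows that the name rule leaves out, Psmb7-ps2 had no more than 14.9 normalized counts in a library, and the 3 others no more than 2.22.

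In the authors' deposited table, 22 members have a false discovery rate under 0.05 and a higher value with ferroptotic medium, and 6 a lower one. The additional lower one is Psmb7. Over all 26096 rows, of which the members are 42, 3370 were higher and 3743 lower at that rate.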
